A study of Rattus norvegicus with 22 samples.

Results

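The receptors for opioid peptides, somatostatin and endocannabinoids were measured in identified spinal neurons of the newborn rat. The set covers the mu (Oprm1), delta (Oprd1) and kappa (Oprk1) opioid receptors, the nociceptin receptor (Oprl1), the somatostatin receptors Sstr1 to Sstr5 and the cannabinoid receptor Cnr1. Members were taken by name, as every probe set to which the platform annotation gives 1 of these 10 gene symbols. The set itself was chosen with earlier results of these data known. They came to 10 of the 1050 probe sets in the table, for 7 of the 10 genes and of the 643 distinct genes named in all, with 3 probe sets for Oprm1, 2 for Oprk1 and 1 each for Oprd1, Oprl1, Sstr2, Sstr4 and Cnr1. Probe sets for Sstr1, Sstr3 and Sstr5 were not analysed here.

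The study asked which genes differ in expression between motor neurons (MNs), which drive the muscles, and descending commissural interneurons (dCINs, labelled CIN), whose axons cross the midline and run caudally in the locomotor network. Both populations were filled from their cut axons with a rhodamine dextran tracer in spinal cords of Wistar rats of postnatal day 0 to 4, and labelled cell bodies of lumbar segment 2 were laser microdissected one by one. There were 7 dCIN arrays, 7 MN arrays and 8 MIX arrays, the last from cells taken at random in the ventral horn, and each array carried RNA from 1 animal after 2 rounds of amplification. The tracer defines a group by where its axons run, so a dCIN sample can hold cells of different transmitter types, and MIX samples can hold MNs and dCINs as well as other cells. Values are signals on a linear scale for a probe set, and a change is the difference of mean log2 signals, called where the p of limma, adjusted after Benjamini and Hochberg for all 1050 probe sets, was under 0.1.

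All of these receptors are G protein-coupled receptors of the Gi/o class. When an agonist binds, the released G protein subunits inhibit adenylyl cyclase, open inwardly rectifying potassium channels and reduce opening of presynaptic calcium channels, so that the neuron fires less and releases less transmitter. In the spinal cord they are best known from pain pathways, where opioids and somatostatin act on dorsal horn cells and endocannabinoids, made by the receiving cell, act backwards on nerve endings.

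Samples held 50 to 100 cells for dCINs, 55 to 250 for MNs and 95 to 187 for MIX, and the median signal of an array lay between 43.5 and 50.9 in all 3 groups. The MN label was borne out by Slc18a3, the vesicular acetylcholine transporter, at 2692 to 5211 in MNs and 55.8 to 1133 in dCINs for U09211_at. Its other probe set, X80395cds_s_at, read 39.4 to 78.0 in MNs and 35.3 to 44.4 in dCINs and was not called. Of the 11 probe sets for motor neuron genes, 6 were called higher in MNs. Slc32a1, the vesicular transporter of GABA and glycine, was the only interneuron marker measured. Its probe set AF030253_at read 352 to 762 in dCINs and 35.2 to 366 in MNs. The other, rc_AA996551_s_at, read 35.1 to 41.9 in dCINs and 29.1 to 42.4 in MNs and did not separate the groups. Arrays numbered 1 and 2 stood apart from the rest of their group among MNs and dCINs, but not among MIX arrays. They held both top or both bottom places for 51% of the probe sets in MNs, 25.6% in dCINs and 4.76% in MIX. Those MN samples had 250 and 230 cells, more than any other sample, and the labels give the number no meaning beyond the replicate. Among the receptors, MN arrays 1 and 2 were both highest for 5 of 10 probe sets and both lowest for 1, and the differences of those 6 probe sets between dCINs and MNs are also given without arrays 1 and 2 of either group.

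**Figure D1:**
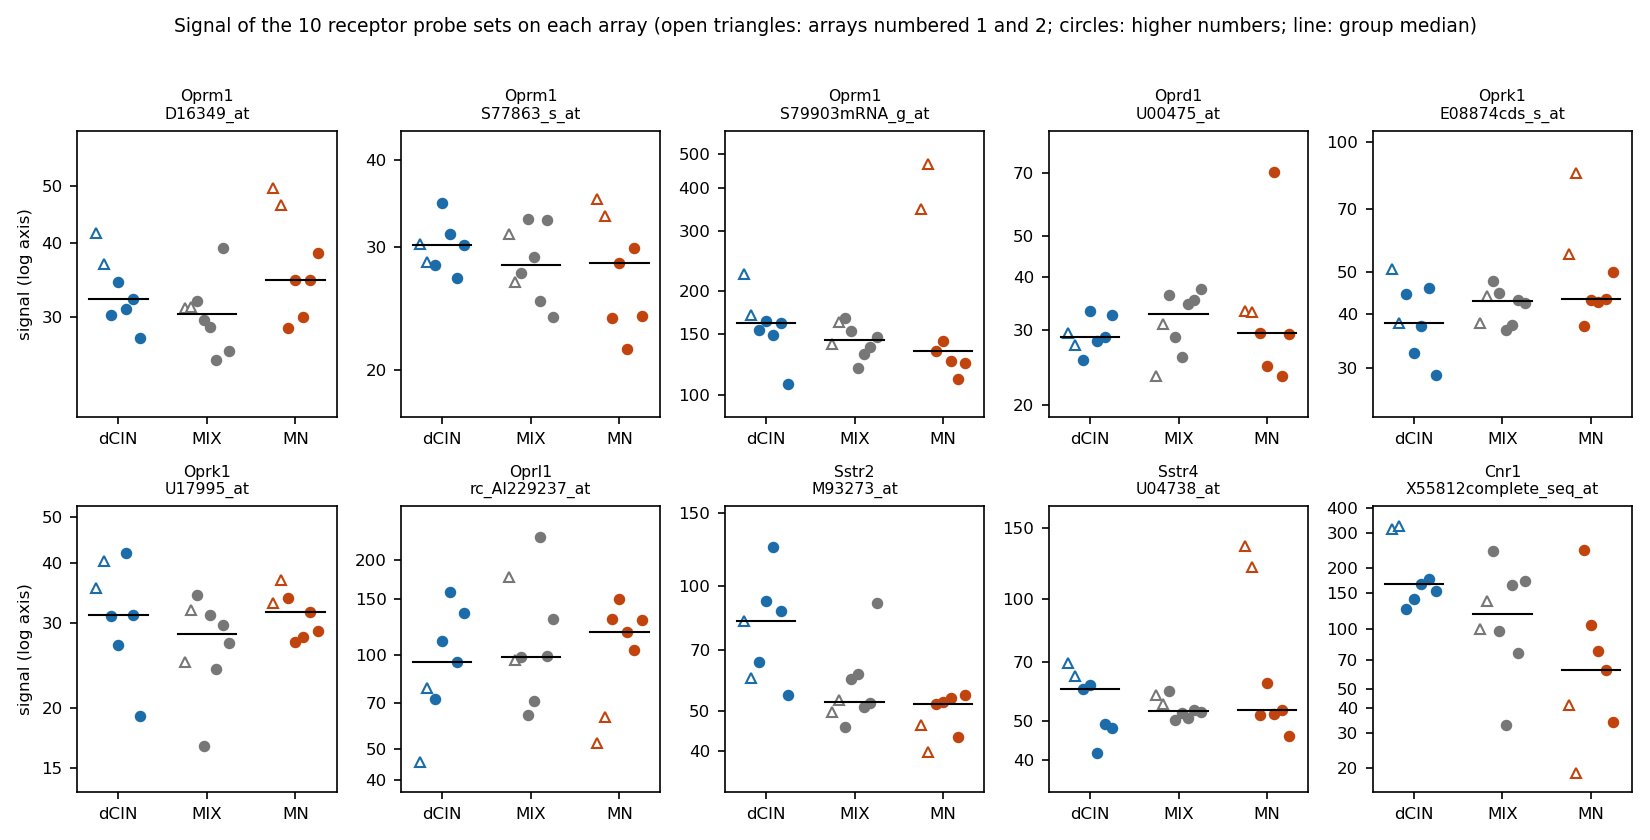
Signal of each of the 10 receptor probe sets (log axis, each panel with its own range) on the 7 dCIN, 8 MIX and 7 MN arrays, with open triangles for arrays 1 and 2 and a line at each group median. Sstr2 and Cnr1 are the probe sets whose 7 dCIN arrays all lie above the MN median, and MN arrays 1 and 2 stand high for Sstr4 and for the Oprm1 probe set S79903mRNA_g_at.

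Of the 10 receptor probe sets, Sstr2 and Cnr1 were called in dCINs against MNs, both higher in dCINs, and none was called lower. These 2 calls, 20% of the members, stand beside 3.81% of all probe sets called in either direction and 2.38% called higher in dCINs. Both genes are also on the paper's list of differing genes from these same arrays, so the 20% is not an independent result. At an unadjusted p under 0.05 the same 2 receptors passed, against 10.9% of all probe sets. The opioid receptors and Sstr4 did not pass in any of their 8 probe sets. Group means were 27.5 to 50.9 for Oprd1, both Oprk1 probe sets and Oprm1 D16349_at and S77863_s_at, and 48.8 for Sstr2 in MNs. These levels are like those of Gfap and Mbp given below, from which the paper concluded that neither was expressed. At such levels a lack of difference does not show equal expression. The median difference over the 10 was -0.13, beside -0.03 over all probe sets, and 4 of the 10 were positive, beside 43.0% of all. For no receptor were the dCIN and MN arrays fully separated, which 1.62% of all probe sets were. In bulk samples of this kind, a lower signal from fewer expressing cells cannot be told apart from less RNA per cell.

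Sstr2, a main receptor for somatostatin on central neurons, was higher in dCINs. Its probe set M93273_at gave 54.4 at the lowest, 82.2 at the median and 124.7 at the highest of the dCIN arrays, and 39.6, 51.8 and 54.5 in MNs. All but 1 of the 7 dCIN arrays therefore lay above every MN array, and dCIN array 7, at 54.4, fell just under the highest MN array. Mean signals were 80.8 ± 24.0 (SD, n = 7) and 48.8 ± 5.78 (SD, n = 7). Mean log2 signals differed by 0.69, which is 1.61-fold, with an SE of 0.16 and a 95% interval of 0.34 to 1.04. The adjusted p from limma was 0.0295, and an exact permutation test over the 3432 splits of the 14 arrays, two-sided, gave 0.00117, where the smallest p possible is 0.000583. The call held when any 1 array was left out, with differences of 0.57 to 0.77 and adjusted p of 0.011 to 0.0789. It also held without arrays 1 and 2 (0.68, adjusted p = 0.0906), while without the MN samples of over 200 cells the difference was 0.61 with an adjusted p of 0.105.

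In the MIX samples Sstr2 stood nearer to the MNs. Signals ran from 45.7 through a median of 52.5 to 90.9, with a mean of 57.9 ± 14.3 (SD, n = 8), and MIX array 8 alone reached the upper dCIN range. The order of the mean log2 levels was dCIN, MIX, MN. MIX lay 0.46 below dCINs (SE 0.16, unadjusted p = 0.00837, adjusted p = 0.37, limma), with 5 of the 8 arrays under every dCIN array, and 0.22 above MNs (adjusted p = 0.507), so neither neighbour in the order passed the test. Without MIX array 8 these differences were -0.56 (adjusted p = 0.111) and 0.13 (adjusted p = 0.699).

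Cnr1, the receptor through which endocannabinoids restrain transmitter release, had the larger difference and the larger spread. Its probe set X55812complete_seq_at gave 125 at the lowest, 167 at the median and 326 at the highest of the dCIN arrays. In MNs the corresponding signals were 18.9, 62.1 and 247. All 7 dCIN arrays were above the MN median, but only 2 of them exceeded MN array 3, which at 247 stood far above the next MN array at 103.9. On the same MN array, the Slc32a1 probe set AF030253_at (366) also had its highest MN signal, and a link between these signals was not tested. Means were 201 ± 84.0 (SD, n = 7) in dCINs and 83.5 ± 77.5 (SD, n = 7) in MNs, a 3.06-fold difference of mean log2 signals, or 1.62 with an SE of 0.45 and a 95% interval of 0.65 to 2.58. The adjusted p was 0.0752 (limma) and the exact permutation p, two-sided, 0.00816.

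The call of Cnr1 depended on the arrays and on the processing, and it was not met with quantile normalization (1.59, adjusted p = 0.103) or with cell number as a covariate (1.24, adjusted p = 0.303). With 1 array left out it was met in 3 of 14 fits, those without dCIN array 3, MN array 3 or MN array 4, with differences of 1.33 to 1.95 and adjusted p of 0.00508 to 0.161, the smallest without MN array 3. Arrays 1 and 2 held both top places in dCINs, at 316 and 326, while in MNs they read 41.5 and 18.9. Between arrays of these numbers the difference was 3.52, and between arrays 3 to 7 it was 0.85 (SE 0.40, adjusted p = 0.408). Outside arrays 1 and 2, dCIN signals spanned 125 to 177 and MN signals 34.0 to 247.

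MIX arrays spread across the range of both populations for Cnr1, from 33.1 through a median of 119 to 245, with a mean of 128 ± 66.3 (SD, n = 8). The order of the mean log2 levels was again dCIN, MIX, MN. The MIX mean lay 0.86 above MNs (SE 0.44, adjusted p = 0.412) and 0.76 below dCINs (SE 0.44, adjusted p = 0.818), so that neither step passed the test in limma. Without arrays 1 and 2 these differences were 0.38 and -0.47 (SE 0.48 for both). Across all 22 arrays the log2 signals of Sstr2 and Cnr1 correlated at r = 0.44, and at r = 0.07 once group means were taken out. These values describe arrays that share normalization and, in part, groups.

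Of 10 probe sets for astrocyte genes, 1 was called in dCINs against MNs, a probe set of Apoe, the lipid carrier made by astrocytes, which was higher in dCINs (log2 difference 0.69, adjusted p = 0.0125, limma). Over all probe sets 3.81% were called in this comparison, and 10.9% had an unadjusted p under 0.05 (limma). Unadjusted, 3 of the 10 astrocyte probe sets had a p under 0.05, all with the higher mean in dCINs. Besides the called one, these were a second Apoe probe set (0.79, adjusted p = 0.118) and S100b, a calcium-binding protein of astrocytes (0.53, adjusted p = 0.17). The summed signal of the 5 measured astrocyte genes was 5262 to 8118 in dCINs, 3328 to 5814 in MNs and 3367 to 8505 in MIX. Gfap, the astrocyte filament protein, was at 29.2 ± 4.26 (SD, n = 7) in dCINs and 30.1 ± 3.60 (SD, n = 7) in MNs for one probe set and 48.3 ± 11.8 and 53.9 ± 7.74 for the other. Mbp of myelin was at 37.0 ± 3.04 and 36.0 ± 4.31 (SD, n = 7 each). None of the 12 probe sets for oligodendrocyte genes was called (3 had an unadjusted p under 0.05, limma), and 4 of the 12 differences were positive. The summed signal of these genes was 540.2 to 1009 in dCINs and 550.1 to 839 in MNs. The 7 measured peptide genes of dorsal horn neurons summed to 1397 to 3282 in dCINs and 1675 to 4328 in MNs, with 2 of 9 probe sets called (Penk and Npy). The part of these cells in the receptor differences was not tested.

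The mu opioid receptor Oprm1, the main target of morphine and of enkephalin and endorphin, gave no difference between dCINs and MNs that passed the test in any of its 3 probe sets. For D16349_at the dCIN arrays read 27.6 to 41.5 (median 32.2) and the MN arrays 28.7 to 49.6 (median 34.7), a log2 difference of -0.15 with a 95% interval of -0.44 to 0.14 (adjusted p = 0.723, limma). For S77863_s_at they read 27.1 to 34.8 (median 30.2) and 21.4 to 35.3 (median 28.5), a difference of 0.12 with an interval of -0.13 to 0.37. The groups overlapped widely in both, and all group means, 28.0 to 37.5, lay under the lowest array median of 43.5. Their direction differed, and both intervals held 0. MN arrays 1 and 2 were the highest of their group in both, and without arrays 1 and 2 the differences were -0.095 (adjusted p = 0.813) and 0.26 (adjusted p = 0.41).

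The third Oprm1 probe set, S79903mRNA_g_at, carried a different pattern. It read 108 to 224 in dCINs (median 162), 111 to 468 in MNs (median 134) and 119 to 167 in MIX (median 144). The high MN end consisted of arrays 1 and 2, at 346 and 468, while the other MN arrays lay between 111 and 143 and all under the dCIN median. Over all arrays the difference was -0.15 with an interval of -0.81 to 0.50 (adjusted p = 0.875), and without arrays 1 and 2 of each group it was 0.20, so its direction rested on those arrays. Deviations from the group means ran together among the 3 probe sets, at r = 0.67 between the first pair, 0.72 between D16349_at and S79903mRNA_g_at and 0.52 between the remaining pair over the 22 arrays. This was not particular to Oprm1, as S79903mRNA_g_at had a higher r with Sstr4 (0.90) and with Oprk1 E08874cds_s_at (0.82). All of these probe sets were highest on MN arrays 1 and 2 among the MN arrays.

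Oprd1, the delta receptor for enkephalins, read 25.6 to 33.2 in dCINs (median 28.9) and 23.5 to 70.4 in MNs (median 29.6). The upper MN value came from array 5 alone, with the next array at 33.3. The difference was -0.15 with an interval of -0.57 to 0.26 (adjusted p = 0.796), and without that array it was 0.03. The dCIN and MN medians lay within 1 unit of signal, and MIX arrays covered 23.5 to 37.4.

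Oprk1, the kappa receptor for dynorphins, had the opioid probe set with the smallest p. E08874cds_s_at read 28.9 to 50.9 in dCINs (median 38.0), 37.5 to 84.7 in MNs (median 43.4) and 36.7 to 47.6 in MIX (median 42.8). Of the dCIN arrays 3 lay under every MN array and MN array 2, at 84.7, stood far above the others. Its difference of -0.33 (SE 0.18, interval -0.70 to 0.04) had an unadjusted p of 0.0787 and an adjusted p of 0.566. It came to -0.20 without MN array 2 and to -0.21 without arrays 1 and 2 of both groups (adjusted p = 0.619). The other Oprk1 probe set, U17995_at, showed a difference of 0.01 with an interval of -0.32 to 0.34 (adjusted p = 0.997).

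Oprl1, the receptor for nociceptin, had a probe set (rc_AI229237_at) that varied more from array to array than between groups. Signals ran from 45.6 to 158 in dCINs (median 95.0), from 52.6 to 150.1 in MNs (median 118) and from 64.3 to 237 in MIX (median 98.6). The difference was -0.12 with an interval of -0.73 to 0.50 (adjusted p = 0.895, limma). Here MN arrays 1 and 2 were the lowest of their group, at 52.6 and 63.5, with the others between 103 and 150.1, and without arrays 1 and 2 the difference was -0.18 (adjusted p = 0.796).

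Sstr4, the second somatostatin receptor measured, did not follow Sstr2. It read 41.6 to 69.2 in dCINs (median 60.0), 45.8 to 135 in MNs (median 53.1) and 50.2 to 59.1 in MIX (median 52.7), where its coefficient of variation, 5.95%, was the smallest of the 30 receptor groups. The difference was -0.29 with an interval of -0.81 to 0.22 (adjusted p = 0.72). MN arrays 1 and 2 read 135 and 119.6 and the others 45.8 to 62.1, so that between arrays 3 to 7 the difference came to -0.04. Its deviations from the group means ran with those of Oprm1 S79903mRNA_g_at, at r = 0.90 over the 22 arrays, which share the high MN arrays 1 and 2.

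**Figure D2:**
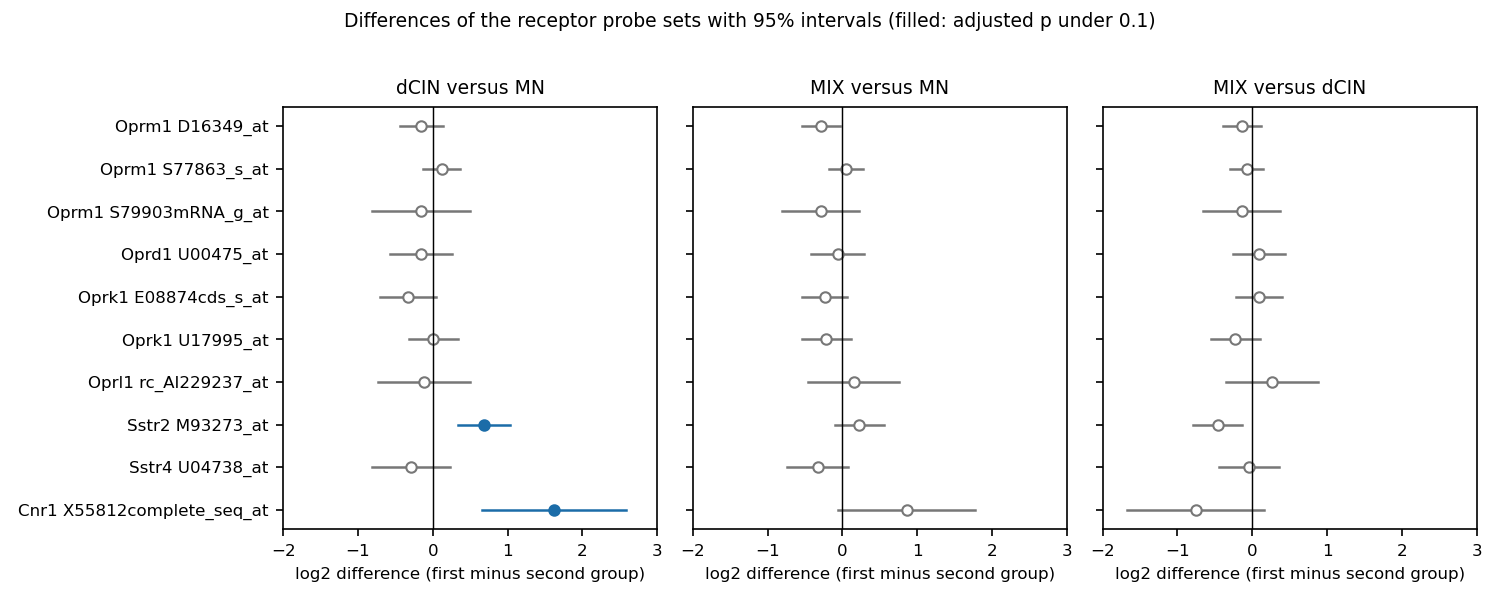
Log2 difference of each receptor probe set (point) with its 95% interval (line) in the 3 comparisons, first group minus second, from limma fits, filled where the adjusted p was under 0.1. Sstr2 (0.69) and Cnr1 (1.62) are the filled points, both in dCINs against MNs, and the intervals of the opioid receptors and Sstr4 cross 0 in that comparison.

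The MIX arrays served as the study's reference for a mixed ventral horn population, and none of the 10 receptor probe sets was called against them (limma). In MIX against MNs, where 0.952% of all probe sets were called and 11.8% had an unadjusted p under 0.05, only Oprm1 D16349_at had one (0.0293). That probe set read 25.3 to 39.2 in MIX (median 30.3), and its difference of -0.29 had an adjusted p of 0.412. Without arrays 1 and 2, of which the MN arrays were the highest of their group, that difference was -0.15 (unadjusted p = 0.228). In MIX against dCINs, where 0.476% of all were called and 7.14% had an unadjusted p under 0.05, only Sstr2 had one. The comparisons share their arrays in pairs and are not independent of each other. MIX mean log2 levels lay between those of dCINs and MNs for 5 of the 10 receptor probe sets and for 35.4% of all probe sets.

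Among the peptides that act on these receptors, the enkephalin precursor stood out. Of 11 listed ligand and endocannabinoid enzyme genes, 4 were measured with 6 probe sets, and 1 was called between dCINs and MNs: Penk, the precursor of the enkephalins, which act on Oprd1 and Oprm1. Its signal was 64.7 to 218 in dCINs (median 156), 24.9 to 48.4 in MNs (median 40.4) and 26.0 to 194 in MIX (median 82.6), so every dCIN array lay above every MN array. Means were 143 ± 55.7 (SD, n = 7), 40.4 ± 7.55 (SD, n = 7) and 90.1 ± 49.6 (SD, n = 8). The difference between dCINs and MNs was 1.73 (SE 0.26, adjusted p = 0.000949, limma), and without arrays 1 and 2, which were the lowest dCIN arrays, it was 2.13.

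The remaining precursors did not pass the test. Pdyn, which encodes the dynorphins that act on Oprk1, read 53.0 to 71.8 in dCINs and 56.5 to 140.4 in MNs, with a difference of -0.35 (adjusted p = 0.605). Pnoc, the nociceptin precursor, differed by 0.02 and -0.42 in its 2 probe sets (adjusted p = 0.957 and 0.69). MN arrays 1 and 2 were far above the other MN arrays for Pdyn (117 and 140.4 against 56.5 to 65.3) and for Pnoc X97374exon_g_at (436 and 469 against 131 to 219). Without arrays 1 and 2 the differences of these probe sets were -0.15 (adjusted p = 0.546) and -0.20 (adjusted p = 0.719). Sst, the source of somatostatin, differed by -0.20 and -0.46 (adjusted p = 0.716 and 0.754), and its probe set M25890_at ran from 387 to 2265 in dCINs, from 647 to 3492 in MNs and from 429 to 2415 in MIX. For Sst, as for Oprl1, the arrays of a group spread far more than the group means differed. Pomc, the endorphin precursor, was not analysed here.

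**Figure D3:**
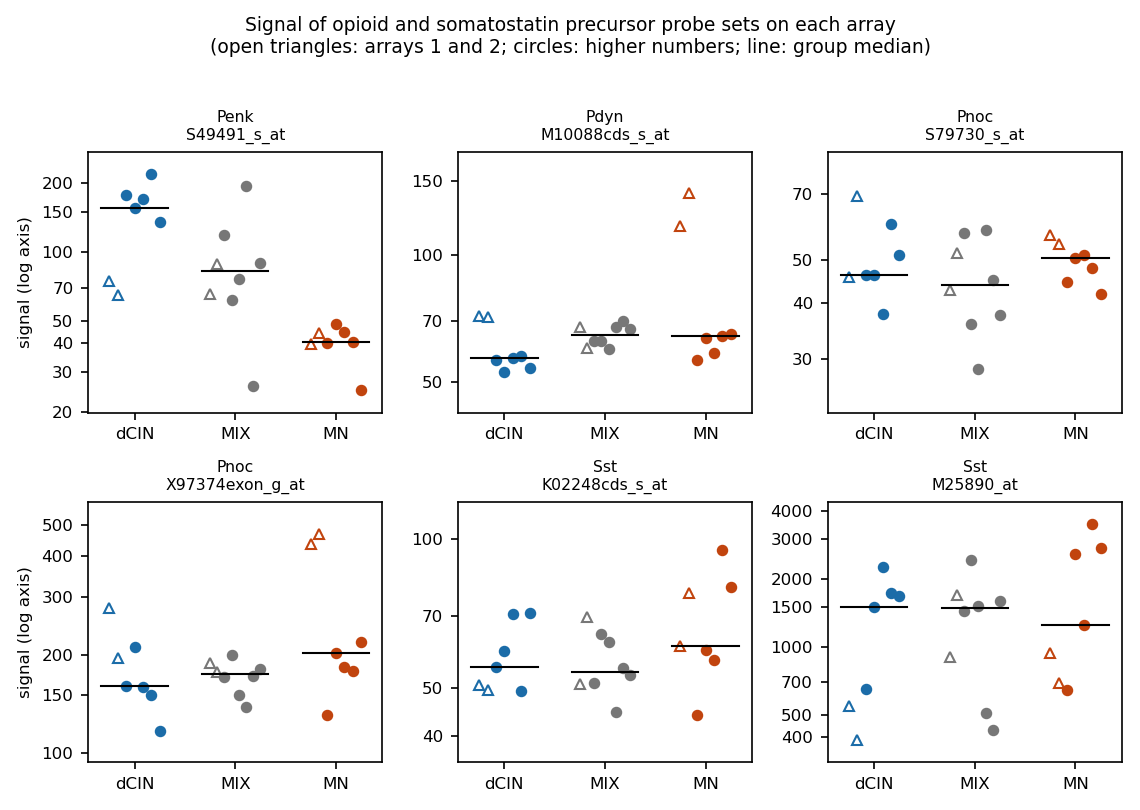
Signal of the 6 probe sets for opioid and somatostatin precursors (log axis, each panel with its own range) on the dCIN, MIX and MN arrays, with open triangles for arrays 1 and 2 and a line at each group median. The Penk arrays of dCINs (64.7 to 218) and MNs (24.9 to 48.4) do not overlap, whereas those of Pdyn, Pnoc and Sst do.

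The measured downstream components of Gi/o signalling gave no call by limma in any of the 3 comparisons. Over all probe sets 3.81% were called in dCINs against MNs, 0.952% in MIX against MNs and 0.476% in MIX against dCINs. With so few probe sets, a lack of calls says little about the pathway. Measured were 8 probe sets for 3 of 20 listed G protein genes (Gnao1, Gnb1 and Gnb2) and 7 for 5 of 16 listed effector genes. A further 7 probe sets were for receptor kinases and arrestins, which switch active receptors off, with 3 of 21 listed genes measured. Median differences of these 3 sets between dCINs and MNs were 0.06, -0.11 and -0.04. Of the 8 G protein probe sets, 2 had an unadjusted p under 0.05, in opposite directions. Against MIX, 1 effector probe set had such a p in the comparison with MNs and 1 G protein probe set in that with dCINs. The measured effectors were Kcnj3 and Kcnj6, subunits of the inward rectifier that these receptors open, and the calcium channel genes Cacna1a, Cacna1b and Cacna1e. Kcnj3 and Kcnj6 differed by -0.17 to 0.02 between dCINs and MNs, with group means of 21.9 to 41.5, under every array median. No adenylyl cyclase or Gi alpha subunit gene was among those measured.

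Among 31 probe sets of 23 other Gi/o-coupled receptor genes, 2 were called in dCINs against MNs, both higher in dCINs. Over all probe sets 3.81% were called, and 2.38% were called higher in dCINs. At an unadjusted p under 0.05 (limma) 2 of the 31 passed, beside 10.9% of all. Gabbr2, a subunit of the GABA B receptor, was higher by 1.44 (SE 0.27, adjusted p = 0.00531) in AF058795_at, from 149 ± 78.6 (SD, n = 7) in MNs to 362 ± 51.3 (SD, n = 7) in dCINs, and its other 2 probe sets differed by -0.07 and 0.01. Grm4, a metabotropic glutamate receptor found at nerve endings, was higher by 1.16 (SE 0.23, adjusted p = 0.00859), at 524 ± 116 against 241 ± 72.2 (SD, n = 7 each). Without arrays 1 and 2 both were still called, at 1.07 and 1.41. The median difference of the 31 was -0.06, beside -0.03 over all probe sets, and 13 of them were positive, beside 43.0% of all.

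The probe sets most alike to the 2 called receptors were sought among the 961 with a single gene symbol, leaving out the receptor's own gene. They were ranked by Pearson's r of log2 signals over the 22 arrays. The ranking is a description of arrays that share a normalization and belong to 3 groups. Nearest to Sstr2 were Kcnc1, a fast potassium channel gene (r = 0.64), Npy, neuropeptide Y (0.62), and Thra, a thyroid hormone receptor (0.62), and within groups these fell to 0.31, 0.29 and 0.32. Nearest to Cnr1 were Prkcb, a protein kinase C gene (r = 0.89), Gabbr2 (0.86) and Atp2a2, a calcium pump of the endoplasmic reticulum (0.84). Within groups these were at r of 0.86, 0.77 and 0.78. Npy was also called higher in dCINs, at 72.7 ± 10.6 against 51.4 ± 5.58 (SD, n = 7 each), with a difference of 0.49 (adjusted p = 0.0155, limma).

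**Figure D4:**
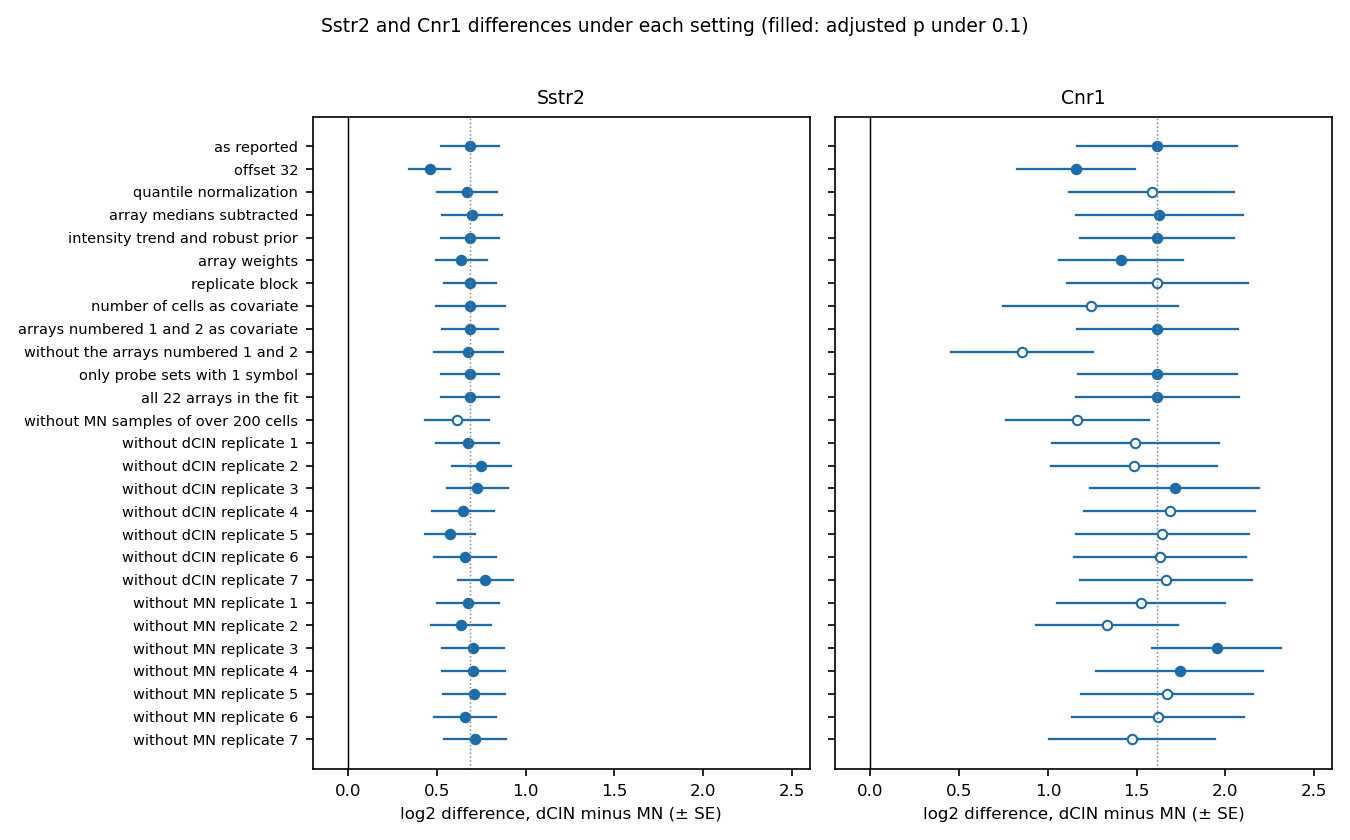
Log2 difference between dCINs and MNs (point, with a line for ± SE) of Sstr2 and Cnr1 as reported (top row and dotted line) and under each alternative of processing or left-out array, filled where the adjusted p was under 0.1. Sstr2 stays between 0.46 and 0.77 and is open only without the MN samples of over 200 cells, whereas Cnr1 ranges from 0.85 to 1.95 and is open in many rows.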

How the data were processed

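RN_U34 arrays were hybridized with biotinylated RNA after 2 rounds of amplification. The authors subtracted a global background from perfect match probes, normalized all 22 arrays with a quantile linear transformation and a quantile projection, made Li-Wong summaries and subtracted a universal minimum; the deposited intensity values are these summaries on a linear scale. The submitters' processing notes name the affy package, with the build not given in the sources used here. The table holds 1050 probe sets, of which the platform annotation gives 961 a single gene symbol, 7 several and 82 none, and 2 of the last were named Gfap from the paper. Intensities were log2-transformed without further normalization. Array signals carry no count, and the precision is limited by how many arrays there are.

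Groups came from the sample titles. dCINs and MNs were compared over 14 arrays and MIX with each over 22 arrays, with limma 3.58.1 in R 4.3.3 (lmFit, eBayes, no trend, not robust), adjusted over all 1050 probe sets. The code was tested on simulated data. Named were every receptor probe set, every called probe set of the pathway lists, the measured precursors of the ligands, and the markers Slc18a3, Slc32a1, Gfap and Mbp. Also named were the 3 probe sets of other genes most alike to each called receptor, among those with a single gene symbol. Apoe, S100b and Npy, marker genes, were named after their values were seen. Members, lists and tests were chosen with earlier results of these data known. Summed marker signals take the brightest probe set of each gene. The replicate numbers were not taken as a pairing, as each array came from its own animal. Deviations from the group means of same-numbered dCIN and MN arrays correlated at -0.19 to 0.53, over 0.1 in 5 of 7 pairs. Whether arrays of the same number shared a run was not tested. Alternatives changed the offset, the normalization, the prior, the weights, the covariates, the arrays and the threshold. Plots were made in Python 3.11.15 (matplotlib 3.10.9, pandas 2.3.3).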

Additional observations from a re-analysis of the deposited data

Results flagged for a closer look

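In 4 of the 30 receptor groups tested (10 probe sets in 3 groups), 1 array lay far from the others relative to the range of its group. For normally distributed values chance alone produces such a gap in about 1 in 20 groups. That rate is only a guide here, because the gaps were taken on linear signals and the groups share arrays. MN array 5 read 70.43 for Oprd1, with the next array at 33.31. MN array 2 read 84.7 for Oprk1 E08874cds_s_at, with the next at 55.01. MIX array 8 read 90.95 for Sstr2, with the next at 61.21. MN array 3 read 247 for Cnr1, with the next at 103.9.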

How the results depend on the processing

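The 2 receptor calls between dCINs and MNs came down to 1, Sstr2, with quantile normalization, the replicate number as a block (Cnr1 at 1.62, adjusted p = 0.147), cell number as a covariate (Cnr1 at 1.24, adjusted p = 0.303), a threshold of 0.05, and without arrays 1 and 2. With a mean log2 signal of at least 6 the 1 call was Cnr1, because Sstr2 then was not tested, and without the MN samples of over 200 cells there were 0 calls (Sstr2 at 0.61, adjusted p = 0.105, and Cnr1 at 1.16, adjusted p = 0.204). Leaving out 1 array gave 1 to 2 calls. Over all probe sets, the 40 calls became 76 with array weights, 83 with arrays 1 and 2 as a covariate and 31 to 55 when 1 array was dropped (lowest without dCIN array 4, highest without MN array 3). For MIX against MNs the 10 calls became 3 with quantile normalization, 33 with array weights, 2 at a threshold of 0.05 and 2 to 14 with 1 array left out. For MIX against dCINs the 5 calls became 2 with quantile normalization, 2 with an intensity trend and robust prior, 68 with cell number as a covariate, 1 at a threshold of 0.05 and 1 to 8 with 1 array left out. The 0 receptor calls of that comparison became 1 with the replicate block, in which MIX array 8 has no partner and carries no weight (Sstr2 at -0.56, adjusted p = 0.0872) and 1 with the number of cells (Oprm1 S79903mRNA_g_at at -0.69, adjusted p = 0.0782). The block ended or made no other receptor call, and of the 7 dCIN arrays 2 correlated best with the MN array of their own number.

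Directions that turned belonged to receptors that were not called. Between dCINs and MNs, array weights gave 0.27 for S79903mRNA_g_at and 0.013 for Sstr4, and the number of cells gave 0.014 for D16349_at, 0.39 for S79903mRNA_g_at and 0.11 for Sstr4. Without arrays 1 and 2 S79903mRNA_g_at was at 0.20 and Oprk1 U17995_at at -0.035, and without the MN samples of over 200 cells D16349_at was at 0.0015, S79903mRNA_g_at at 0.32 and Sstr4 at 0.073. For MIX against MNs, array weights gave 0.19 for S79903mRNA_g_at and -0.041 for Oprl1, and without arrays 1 and 2 S79903mRNA_g_at was at 0.16, Oprd1 at 0.019, Oprl1 at -0.25 and Sstr4 at 0.0070. For MIX against dCINs, the number of cells gave -0.10 for Oprk1 E08874cds_s_at, and without arrays 1 and 2 Oprl1 was at -0.065 and Sstr4 at 0.042. With 1 array left out, the dCIN and MN differences ran from -0.26 to 0.083 for S79903mRNA_g_at, from -0.23 to 0.032 for Oprd1, from -0.060 to 0.13 for U17995_at and from -0.27 to 0.055 for Oprl1. Those of MIX and MN ran from -0.015 to 0.10 for S77863_s_at, from -0.14 to 0.12 for Oprd1 and from -0.0060 to 0.26 for Oprl1, and those of MIX and dCIN from -0.11 to 0.010 for Sstr4. The cause of these shifts was not tested. Penk, Gabbr2 AF058795_at and Grm4 were called between dCINs and MNs under all 14 other settings and in all 14 fits that leave out 1 array.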
